A study of Mus musculus with 8 samples.

Results

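Transcripts of granulosa and cumulus cells, the somatic cells that enclose the oocyte in its follicle, were followed in sequenced mouse oocytes. The set held 33 genes chosen by name, of 54838 genes in the deposited table: 7 genes of cumulus matrix expansion and its control, 3 ligands of the EGF receptor, 6 receptors, 5 ligands and binding proteins of the TGF-beta family, 5 genes of steroid synthesis, 3 transcription factors and 4 genes of the exchange between oocyte and somatic cells. Reads at the germinal vesicle (GV) stage were used to part the genes readily detected in oocyte libraries from those seldom read there. Total RNA came from pools of 5 to 10 oocytes, in 2 libraries for each of 4 groups. The groups were control oocytes at GV, oocytes without BAF250a at GV, control oocytes at second metaphase (MII) and oocytes without BAF250a at MII. BAF250a, encoded by Arid1a, is the large ARID subunit of the BAF chromatin remodelling complex. The knockout (BAF250aGKO in the labels) used Gdf9-cre, a recombinase driven by a promoter of the growing oocyte, and the controls are labelled wildtype. All mice were C57BL/6. Which exon was floxed, the alleles of the controls, the ages, the hormone treatment and the way surrounding cells were removed were not given in the sources used here. Nor do the labels say that the libraries of a group came from separate mice, so the p-values measure the spread between these libraries only.

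Granulosa cells make oestrogen, inhibin and anti-Mullerian hormone, and feed the oocyte through gap junctions at the ends of processes that cross the zona pellucida. After the luteinising hormone surge, EGF-like ligands made by mural granulosa cells act on cumulus cells, which lay down a hyaluronan matrix and retract those processes while the oocyte resumes meiosis. The oocyte in turn secretes GDF9 and BMP15, which the somatic cells read through BMPR1B, BMPR2 and partner receptors.

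Libraries held 19587421 to 33289150 reads in genes, so a floor of 3 counts came to 0.0894 to 0.170 CPM, the unit of read counts normalised to library depth. Values of single genes are CPM after TMM scaling (trimmed mean of M values) unless called unscaled. They are shares of a library, and floors and intervals cover counting error only. Reads of Arid1a numbered 8178 and 10928 at GV and 42047 and 39148 at MII in control oocytes, and 86 and 312 at GV and 1109 and 576 at MII in knockout oocytes, so it was low in all 4 libraries labelled knockout. Of the 9 oocyte markers listed, 8 were above 1 CPM in all 8 libraries, with Gdf9 at 8277 to 21739 CPM, Bmp15 at 967 to 2530 CPM, Zp3 at 184 to 6340 CPM and Kit at 101 to 219 CPM, while Figla was at 26.2 to 36.4 CPM at GV and 0.0377 to 1.00 CPM at MII. In bulk samples such as these, fewer cells of a type and less RNA per cell cannot be told apart.

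Of the 33 genes, 5 had at least 5 unscaled CPM in each of the 4 GV libraries: Serpine2, Bmpr1b, Inha, Cyp19a1 and Nr5a2. These are called readily detected at GV below. A further 13 had a mean below 0.5 CPM over the GV libraries: Has2, Ptgs2, Tnfaip6, Ptx3, Vcan, Cd44, Areg, Ereg, Btc, Lhcgr, Pgr, Star and Slc38a3. The other 15 lay between, namely Fshr, Amhr2, Npr2, Amh, Inhba, Inhbb, Fst, Cyp11a1, Hsd3b1, Hsd17b1, Foxl2, Nr5a1, Kitl, Ihh and Gja1. A level alone does not tell RNA made in the oocyte from RNA of an attached somatic cell, so the classes describe levels and not the source.

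Of the readily detected genes Inha was lowest, at 7.63 unscaled CPM in its poorest GV library, and the nearest gene outside was Cyp11a1, at 1.01. At the lower line, Inhba had a mean of 0.559 and Vcan of 0.489 unscaled CPM. A line at 1 CPM added Cyp11a1, and a line at 10 CPM dropped Inha. Summed over the 5 readily detected genes, the unscaled level was 360 and 418 CPM at GV and 656 and 725 at MII in control oocytes, and 369 and 365 at GV and 793 and 644 at MII in knockout oocytes. Summed over the other 28, it was 42.3 and 27.5 CPM at GV and 49.4 and 76.7 at MII in control oocytes, and 11.8 and 11.2 at GV and 25.6 and 5.58 at MII in knockout oocytes. The classes were set on the GV values, so the sums at GV only describe them. At MII, which the classes did not use, the sum of the 28 was lower in both knockout libraries than in either control library. A few genes held much of it, namely Hsd3b1 in control library a (16.3 CPM) and Fst and Star in b (29.0 and 13.9). In knockout library 1 they were Hsd3b1 and Kitl (9.76 and 7.60). Without Hsd3b1 and Kitl, the other 26 summed to 32.6 and 71.5 CPM in control and 8.26 and 2.36 in knockout MII.

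**Figure D1:**
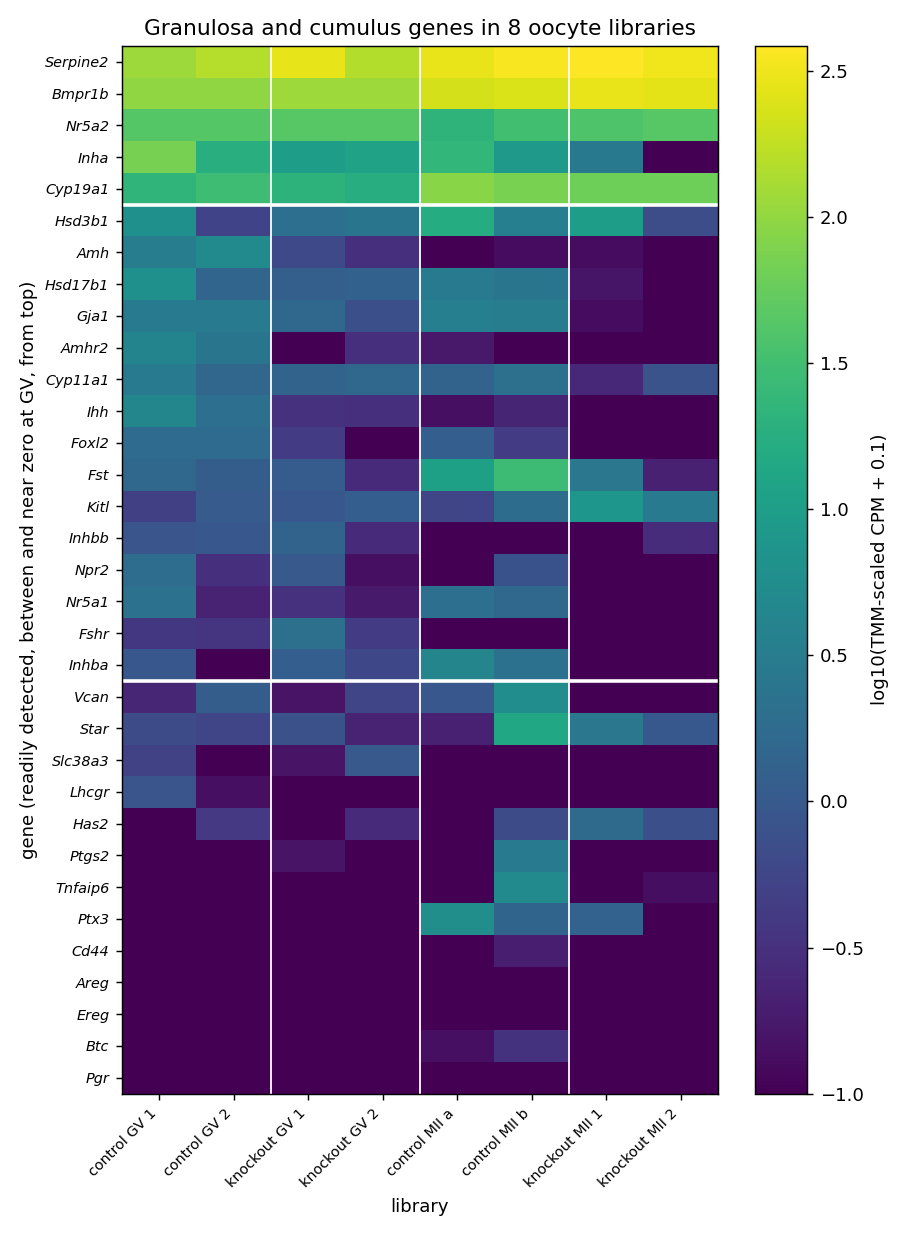
Level of each of the 33 genes (rows, grouped by class at GV) in each of the 8 libraries (columns), as log10 of TMM-scaled CPM plus 0.1. Serpine2 and Bmpr1b are the highest in every library, Inha lies below Fst and Star in control MII library b, and in knockout MII library 2 the level of 21 of the 33 genes is 0.

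Filtering on low counts left 24 of the 33 genes among 15572 tested. Untested were Ptgs2, Tnfaip6, Cd44, Areg, Ereg, Btc, Fshr, Lhcgr and Pgr. Since a gene can pass that filter through the group where it is high, counts among the 24 are descriptions of the tested genes and not of the set. A gene is said to have risen or fallen where the edgeR quasi-likelihood test gave an adjusted p below 0.05 over all genes tested (Benjamini-Hochberg, n = 2 libraries per group), and log2 fold changes are given ± SE. Knockout against control asks what loss of BAF250a changed at each stage, and MII against GV what changed over maturation.

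At GV, 0 of the 24 differed between knockout and control with edgeR, where 0.989% of all genes tested did, and DESeq2 also gave 0. At an unadjusted p below 0.05 there were 3, Ihh, Amh and Amhr2, all lower, where 10.8% of all genes passed in either direction and 4.21% were lower. The groups' values did not overlap for 9 genes lower and 2 higher in the knockout, against 23.8% and 22.6% of all genes. The median log2 fold change was -0.68 over the 24 and -0.00212 over all genes. With library totals as the only scaling, the median of all genes moved by -0.271 at GV and by -0.0665 at MII.

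At MII, 2 of the 24 fell in the knockout and 0 rose, where 3.44% of all genes fell and 1.7% rose (5.14% together). These were Gja1, the main gap junction channel of granulosa cells, and Hsd17b1, which turns oestrone into oestradiol. At an unadjusted p below 0.05, 9 were lower and 2 higher, against 13.4% and 8.8% of all genes. The groups did not overlap for 12 genes lower and 4 higher, against 24.7% and 21.7% of all genes. The median was -2.27 over the 24 and -0.00923 over all genes. The difference of the knockout effect between the stages was called for 0 of the 24 with edgeR, where 0.0835% of all genes were called, and for 1, Inhba, with DESeq2. At an unadjusted p below 0.05 there were 4 genes, Gja1, Hsd17b1, Inhba and Vcan, all with a more negative knockout effect at MII than at GV. Of all genes, 11.5% passed in either direction and 1171 of 15572 in this one.

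**Figure D2:**
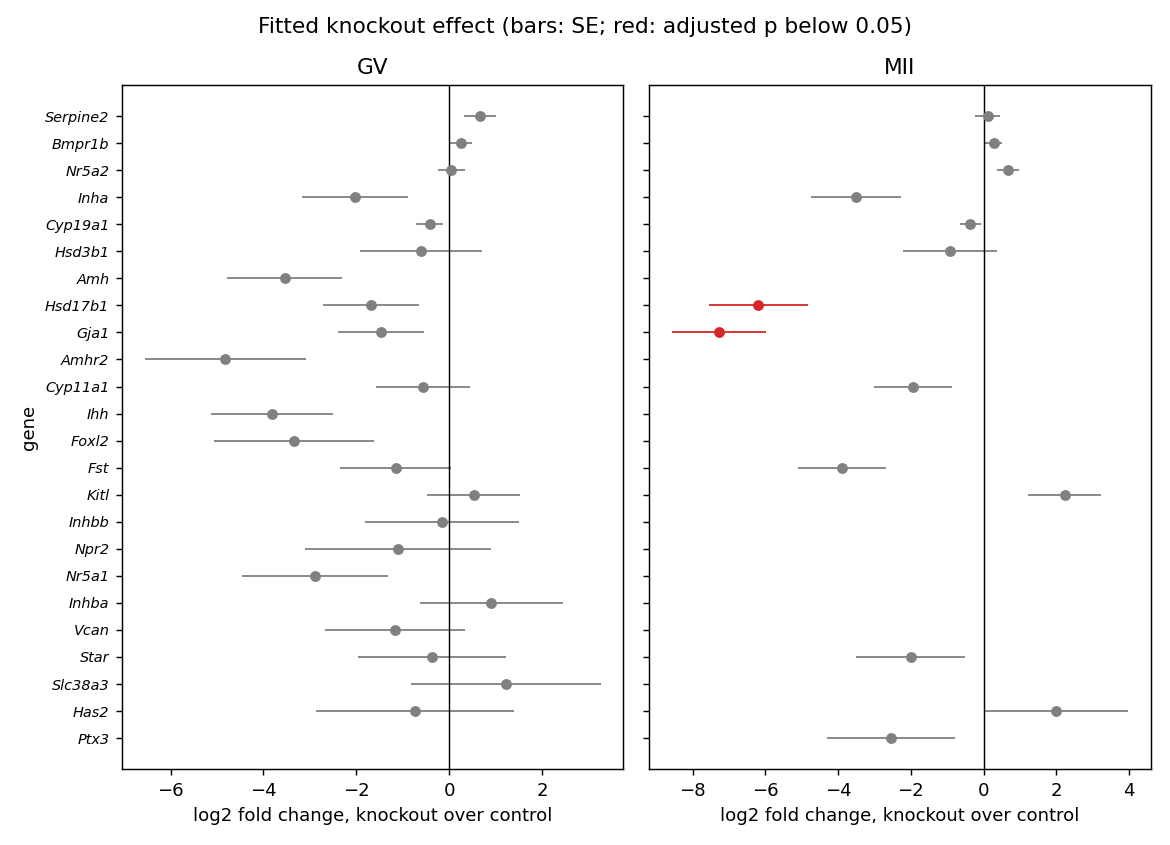
Log2 fold change (knockout over control) at each stage with its SE, for the tested genes with reads in both groups and more than 3 in a library (23 at GV, 14 at MII). Dots are estimates and red marks an adjusted p below 0.05. At GV every gene missed the threshold, and at MII Gja1 (-7.27) and Hsd17b1 (-6.19) passed it while Serpine2, Bmpr1b and Cyp19a1 lay near 0. The other readily detected genes, Inha (-3.50) and Nr5a2 (0.67), lay further from 0 at MII and did not pass.

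Over maturation, 5 of the 24 rose and 4 fell in control oocytes, where 21.2% of all genes rose and 27.9% fell. In knockout oocytes 2 rose and 5 fell, where 19.9% of all genes rose and 29.1% fell. Cyp19a1 and Bmpr1b rose, and Amh and Ihh fell, in both genotypes. Against those shares of all genes, the counts are not read as a result about the set. The maturation comparisons share GV and MII libraries with the knockout comparisons, and the genes are described in turn by role.

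Among genes of the cumulus matrix, Serpine2 was by far the most abundant. It encodes a secreted inhibitor of serine proteases, and lies in mm10 on chromosome 1 from 79794197 to 79861180, minus strand. Its level was 115 and 155 CPM at GV and 298 and 358 at MII in control oocytes, and 281 and 147 at GV and 386 and 323 at MII in knockout oocytes. Both MII groups lay above all 4 GV libraries, and the ranges of the genotypes overlapped at each stage. Serpine2 rose over maturation in control oocytes, from 135 ± 27.8 to 328 ± 43.0 CPM (SD, n = 2; 1.28 ± 0.34, adjusted p = 0.0107), a call lost without control GV library 1 (adjusted p up to 0.0877) or control MII library b. In knockout oocytes the difference was 0.73 ± 0.34 (adjusted p = 0.0955), and the test of the 2 changes against each other gave -0.55 ± 0.47 (adjusted p = 0.722). Knockout against control gave 0.66 ± 0.34 at GV (adjusted p = 0.542) and 0.11 ± 0.33 at MII (adjusted p = 0.907).

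The other matrix genes were near 0 at GV. Ptx3, encoding pentraxin 3, which helps to hold the hyaluronan matrix together, had 0 reads in all 4 GV libraries. At MII the control libraries had 153 and 41 reads and the knockout libraries 41 and 0, or 5.88, 1.35, 1.22 and 0 CPM. Ptx3 thus rose over maturation in control oocytes, at least 27.3-fold by the group mean (adjusted p = 0.0238). In knockout oocytes the difference did not pass (adjusted p = 0.0728), and 1 of the MII libraries had 0 reads, as at GV. It was called higher there with no filter on low counts. The test of the 2 changes against each other could not decide, with an SE of 5675 on -2.54. The control call was lost without either control GV library, with DESeq2 and without control MII library a. Vcan, encoding the proteoglycan versican, had 22 and 170 reads at MII in control oocytes and 0 and 0 in knockout oocytes. By the group mean it was at least 31.9-fold lower, with an adjusted p of 0.0509. It was called lower there with DESeq2 and with no filter on low counts.

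Some matrix genes rested on 1 library. Tnfaip6, whose product links hyaluronan to its protein partners, had 154 of its 155 reads in control MII library b. Ptgs2, the inducible prostaglandin synthase, had 87 of its 88 reads there. All 3 reads of the hyaluronan receptor gene Cd44 were in that library too. Has2, the hyaluronan synthase of cumulus cells, had its highest values in the knockout, at 0 and 0.562 CPM in control and 1.64 and 0.642 CPM in knockout oocytes at MII (1.99 ± 1.97, adjusted p = 0.613). Control MII library b was the highest library for these 3 genes and Vcan, 4 of the 7, while Has2, Ptx3 and Serpine2 were highest in other libraries.

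The EGF-like ligands were the group with the fewest reads. Areg and Ereg, for amphiregulin and epiregulin, had 0 reads in all 8 libraries, which allows at most 0.0894 to 0.170 CPM. Btc, for betacellulin, had 1 and 7 reads in the control MII libraries and 0 in the other 6. The EGF receptor gene and other ligands were read throughout, chosen here after their values were seen: Egfr lay at 18.1 to 61.8 CPM, Nrg1 at 29.0 to 76.3 CPM, Egf at 2.10 to 36.1 CPM and Tgfa at 0.826 to 47.4 CPM over the 8 libraries. No difference between groups was detectable for Areg, Ereg or Btc at this depth.

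Among the receptors, Bmpr1b, a type I receptor of the BMP family, was readily detected at GV. It lies in mm10 on chromosome 3 from 141837136 to 142169425, minus strand. Its level was 98.0 and 97.6 CPM at GV and 226 and 241 at MII in control oocytes, and 117 and 116 at GV and 295 and 272 at MII in knockout oocytes. The libraries of a group were close together, and the knockout libraries lay above the control libraries at both stages. That difference did not pass at GV (0.25 ± 0.24, adjusted p = 0.850; -0.02 with library totals as the only scaling) or at MII (0.28 ± 0.24, adjusted p = 0.545). Bmpr1b rose over maturation in control oocytes (1.26 ± 0.24, adjusted p = 0.00177) and in knockout oocytes (1.28 ± 0.24, adjusted p = 0.00152), and passed under all 14 and 15 alternatives run.

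Receptors that define granulosa cells were low and were read mainly in GV oocytes. Amhr2, the receptor of anti-Mullerian hormone, lies in mm10 on chromosome 15 from 102445367 to 102454633, plus strand. It had 4.04 and 2.39 CPM at GV and 0.0769 and 0 at MII in control oocytes, and 0 and 0.207 at GV and 0 and 0 at MII in knockout oocytes. Both control GV libraries lay above the other 6. Amhr2 fell over maturation in control oocytes, from 144 to 2 reads, a ratio of 89.2 (95% Clopper-Pearson interval 24.3 to 744, adjusted p = 0.0219), a call lost without either control GV library or without control MII library b (adjusted p up to 0.143). At GV the knockout difference was -4.82 ± 1.73 (adjusted p = 0.316). Fshr, the receptor of follicle-stimulating hormone, had 0 reads in all 4 MII libraries, and at GV 6 in each control library and 36 and 8 in the knockout libraries, so it did not share the low values of Amhr2 in knockout GV. Lhcgr, the luteinising hormone receptor, had 17 and 1 reads in control GV and 0 elsewhere. Npr2, the receptor through which granulosa cells make cyclic GMP that holds the oocyte in prophase, ranged from 0 to 1.81 CPM and passed in no comparison, though it was called lower over maturation in knockout oocytes with no filter on low counts and in the 6 numbered libraries with or without the replicate block. Pgr, the progesterone receptor, had 0 reads in all libraries.

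The sequence before the start site is shown for 2 genes on which the results turn, Gja1, which fell at MII in the knockout, and Amhr2, which was read mainly in control GV oocytes. Both are the 250 bases upstream of the RefSeq start on the plus strand of GRCm38.p6 (the mm10 build), at chr10:56377050-56377299 for Gja1 and chr15:102445117-102445366 for Amhr2. Capitals mark letters of the motifs searched on both strands, TGACG, part of the cyclic AMP response element, and AAGGTCA, a site bound by the NR5A factors that Nr5a1 and Nr5a2 encode.
Gja1: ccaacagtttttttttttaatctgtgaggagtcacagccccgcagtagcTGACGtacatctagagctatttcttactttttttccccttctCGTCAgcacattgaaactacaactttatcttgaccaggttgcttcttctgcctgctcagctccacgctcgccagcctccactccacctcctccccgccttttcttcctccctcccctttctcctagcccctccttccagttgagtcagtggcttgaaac
Amhr2: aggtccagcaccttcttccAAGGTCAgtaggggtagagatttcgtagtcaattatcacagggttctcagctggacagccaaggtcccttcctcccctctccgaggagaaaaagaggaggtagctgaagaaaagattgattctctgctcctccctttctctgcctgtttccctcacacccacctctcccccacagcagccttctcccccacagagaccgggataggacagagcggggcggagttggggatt
In Gja1 the matches to TGACG begin 201 and 159 bases before the start, on the sense and antisense strand. In Amhr2 AAGGTCA begins 231 bases before it. RefSeq windows of 300 bases (250 before and 50 after a start) were found for 25 of the 33 genes, in 31 windows. AAGGTCA was in 3.23% of these windows and in 4.72% of 32851 windows of all genes, and TGACG in 19.4% and 20.8%. The genes with TGACG were Areg, Btc, Cyp11a1, Gja1, Ihh and Ptgs2. The motifs were therefore no more frequent here than among all windows, and a match is a description of letters only.

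Among ligands and binding proteins of the TGF-beta family, the one readily detected at GV was Inha, which encodes the alpha subunit of inhibin and lies in mm10 on chromosome 1 from 75507077 to 75510366, plus strand. Its level was 70.0 and 17.8 CPM at GV and 23.4 and 8.42 at MII in control oocytes, and 9.80 and 11.7 at GV and 2.74 and 0 at MII in knockout oocytes. Every knockout library lay below every control library of its stage, but the control libraries differed widely. The difference did not pass at GV (-2.03 ± 1.14, adjusted p = 0.609) or at MII (-3.50 ± 1.23, adjusted p = 0.133). With no filter on low counts Inha passed at both stages, and at GV also with only the 4 GV libraries (adjusted p = 0.0241, over a range of 0.00467 to 1.00 across alternatives). At MII it also passed without knockout MII library 1, where the remaining knockout library had 0 reads.

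Amh encodes anti-Mullerian hormone, made by granulosa cells of small follicles. Its level was 3.25 and 5.11 CPM at GV and 0 and 0.0330 at MII in control oocytes, and 0.510 and 0.207 at GV and 0.0298 and 0 at MII in knockout oocytes. Control GV lay above all other libraries. Amh fell over maturation in control oocytes, from 192 reads to 1, a ratio of 238 (interval 42.2 to 9445, adjusted p = 0.00300), and kept that call under all 13 alternatives run. It fell in knockout oocytes as well, from 14 reads to 1, a ratio of 20.1 (interval 3.06 to 849, adjusted p = 0.0419), a call lost when any of 5 libraries was left out (both control GV, both knockout GV or knockout MII library 2). The knockout difference at GV was -3.54 ± 1.24 (adjusted p = 0.290).

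Fst encodes follistatin, which binds and blocks activin. Its level was 1.53 and 1.05 CPM at GV and 10.7 and 28.5 at MII in control oocytes, and 1.02 and 0.165 at GV and 2.50 and 0.113 at MII in knockout oocytes. Fst rose over maturation in control oocytes (3.92 ± 1.22, adjusted p = 0.0230), a call lost without either control GV library or without control MII library b. In knockout oocytes the difference was 1.19 ± 1.18 (adjusted p = 0.426), and at MII knockout against control gave -3.89 ± 1.22 (adjusted p = 0.0983). The MII difference was called with DESeq2 and with no filter on low counts. The 2 changes over maturation were not shown to differ (-2.73 ± 1.65, adjusted p = 0.570).

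The activin subunit genes Inhba and Inhbb were both low. Inhba had 0.835 and 0 CPM at GV and 4.15 and 2.05 at MII in control oocytes, and 1.08 and 0.496 at GV and 0 and 0 at MII in knockout oocytes. It fell over maturation in knockout oocytes, at least 7.76-fold (adjusted p = 0.0283), a call lost without knockout GV library 1 or without either knockout MII library. In control oocytes the same comparison gave 2.89 ± 1.60 (adjusted p = 0.161). At MII the knockout was at least 30.6-fold lower with an adjusted p of 0.0604. That difference was called with DESeq2, with no filter on low counts and with only the 4 MII libraries. Inhbb had 0.789 and 0.838 CPM at GV and 0 and 0 at MII in control oocytes, and 1.30 and 0.165 at GV and 0 and 0.189 at MII in knockout oocytes. It fell over maturation in control oocytes, at least 7.59-fold (adjusted p = 0.0342), a call lost when any library but the 2 of knockout MII was left out.

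**Figure D3:**
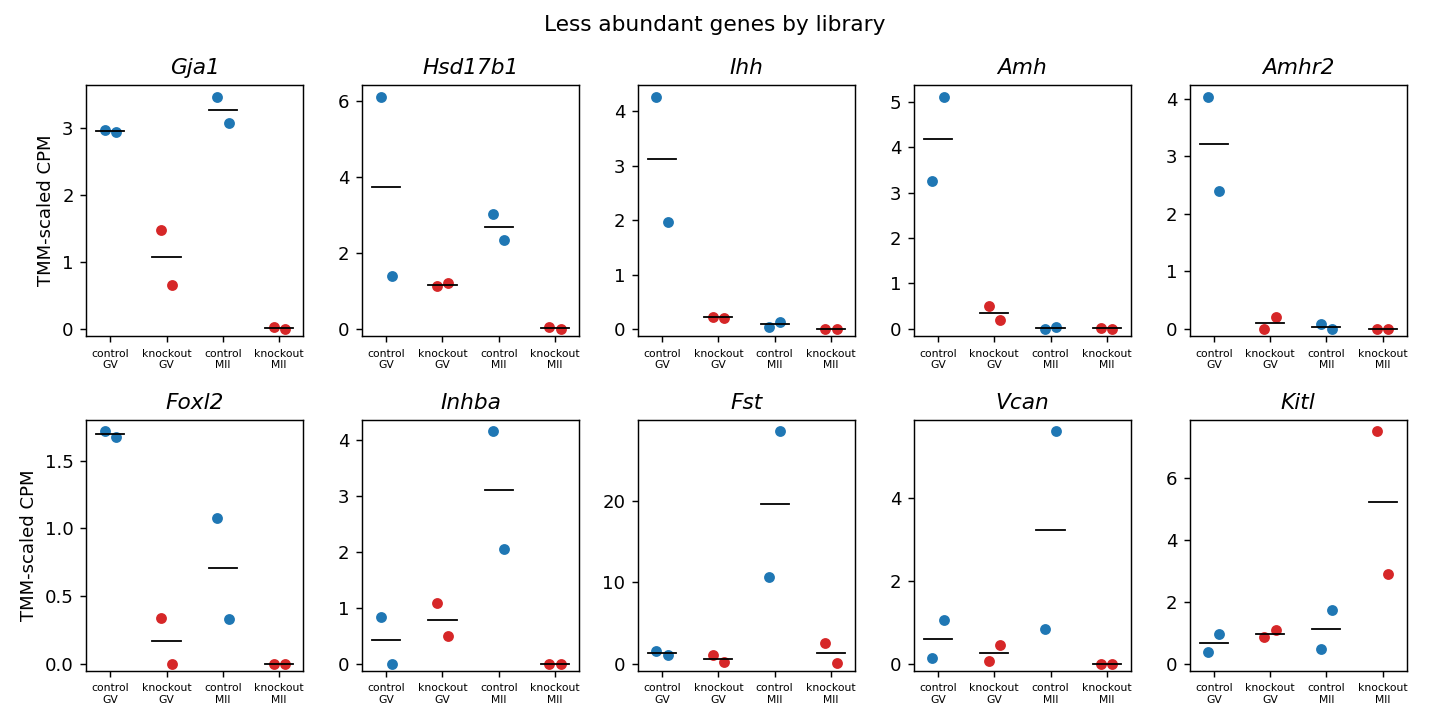
TMM-scaled CPM of 10 of the less abundant genes in each of the 8 libraries, as points by group with a line at the group mean. Gja1 lay between 0.661 and 3.46 CPM in 6 libraries and at or below 0.0298 CPM in knockout MII, while Amh, Amhr2 and Ihh were highest in control GV.

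Among genes of steroid synthesis, Cyp19a1, encoding aromatase, was readily detected at GV. It lies in mm10 on chromosome 9 from 54165937 to 54268110, minus strand. Its level was 21.9 and 29.3 CPM at GV and 87.5 and 73.5 at MII in control oocytes, and 20.8 and 17.3 at GV and 62.9 and 62.0 at MII in knockout oocytes. The MII libraries lay above all GV libraries, and the knockout libraries lay below the control libraries at each stage. Cyp19a1 rose over maturation in control oocytes, from 25.6 ± 5.28 to 80.5 ± 9.89 CPM (SD, n = 2; 1.65 ± 0.30, adjusted p = 0.00123), and in knockout oocytes, from 19.1 ± 2.50 to 62.5 ± 0.627 CPM (1.71 ± 0.30, adjusted p = 0.000994). It passed under all 14 and 15 alternatives run. Knockout against control did not pass at GV (-0.43 ± 0.29, adjusted p = 0.717) or at MII (-0.37 ± 0.29, adjusted p = 0.514).

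Hsd17b1 acts beside aromatase in making oestradiol, and lies in mm10 on chromosome 11 from 101078411 to 101080527, plus strand. Its level was 6.13 and 1.38 CPM at GV and 3.04 and 2.35 at MII in control oocytes, and 1.13 and 1.20 at GV and 0.0596 and 0 at MII in knockout oocytes. Knockout MII lay below the other 6 libraries. Hsd17b1 fell at MII in the knockout, from 150 to 2 reads, a ratio of 80.1 (interval 21.8 to 667; -6.19 ± 1.36, adjusted p = 0.0305). The call held under 8 of 13 alternatives (adjusted p from 0.000481 to 0.0919), and was lost without control GV library 1, either knockout GV library or knockout MII library 2 and with only the 4 MII libraries. Over maturation it fell in knockout oocytes (49 to 2 reads, ratio 35.1, interval 9.23 to 298, adjusted p = 0.0105, kept under all 14 alternatives) and gave -0.48 ± 1.00 in control oocytes (adjusted p = 0.720). At GV the knockout difference was -1.68 ± 1.04 (adjusted p = 0.667).

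Cyp11a1, which cuts the cholesterol side chain as the first step of steroid synthesis, ranged from 0.149 to 2.78 CPM. Its exons share 145 bases with the same-strand noncoding gene Gm17322, which held 423 reads against its 273, so the split of reads between them is uncertain. Star, the carrier of cholesterol into mitochondria, had 414 of its 564 reads in control MII library b. Hsd3b1 ranged from 0.419 to 16.3 CPM and differed within every group but knockout GV, at 16.3 and 3.40 CPM in control MII. It belongs to a family of near-identical genes among which reads may be divided. Cyp11a1, Star and Hsd3b1 passed in no comparison, though Star was called higher over maturation in control oocytes with DESeq2, with no filter on low counts and without control MII library a.

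Among transcription factors, Nr5a2, a nuclear receptor also active in granulosa cells, was readily detected at GV. It lies in mm10 on chromosome 1 from 136842571 to 136960448, minus strand. Its level was 44.3 and 43.5 CPM at GV and 21.7 and 31.1 at MII in control oocytes, and 45.4 and 45.2 at GV and 39.3 and 44.8 at MII in knockout oocytes. The 4 GV libraries were nearly level, and the knockout difference at GV was 0.04 ± 0.30 (adjusted p = 1.00), which turned to -0.23 with library totals as the only scaling. Control MII was lowest, but neither the change over maturation in control oocytes (-0.73 ± 0.30, adjusted p = 0.0647) nor the knockout difference at MII (0.67 ± 0.30, adjusted p = 0.221) passed. The first of these did pass with DESeq2, with DESeq2 size factors, with a mean of at least 5 CPM and without control MII library b.

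The factors that define granulosa identity were low. Foxl2, a forkhead factor that keeps granulosa cells in the female state, had 37 and 40 reads at GV and 28 and 10 at MII in control oocytes, and 6 and 0 at GV and 0 and 0 at MII in knockout oocytes. The knockout lay below the control at both stages. Its adjusted p was 0.561 at GV (-3.34 ± 1.72), and at MII it was at least 6.95-fold lower with an adjusted p of 0.112. Nr5a1, the steroidogenic factor, had 47 and 3 reads at GV and 50 and 47 at MII in control oocytes, and 4 and 2 at GV and 0 and 0 at MII in knockout oocytes, at least 17.2-fold lower with an adjusted p of 0.0613. Foxl2 and Nr5a1 were both called lower at MII in the knockout with DESeq2 and with no filter on low counts.

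**Figure D4:**
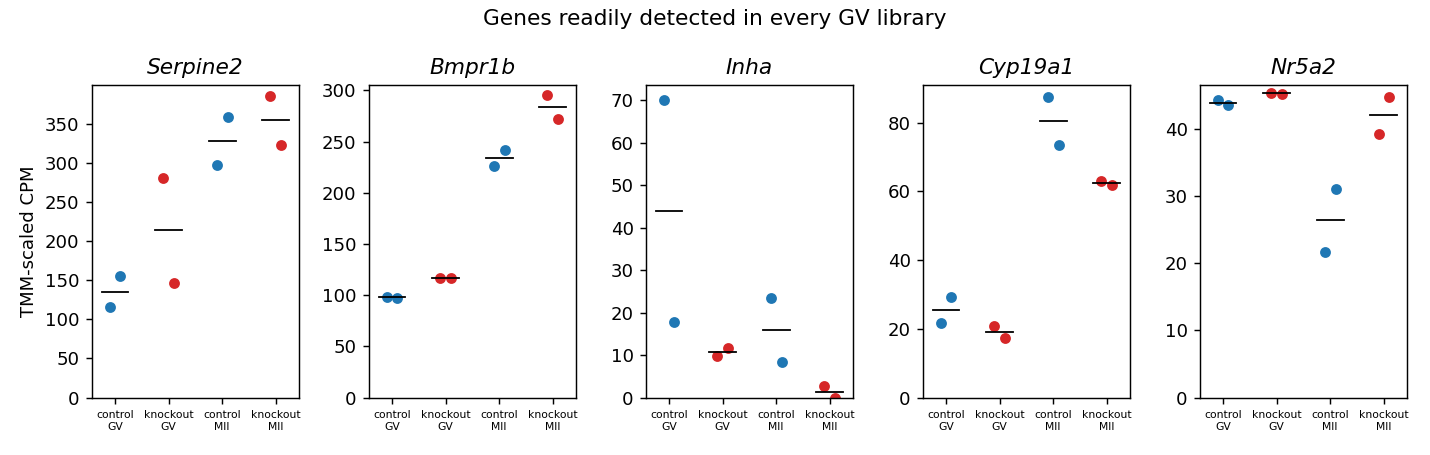
TMM-scaled CPM of the 5 genes readily detected at GV in each of the 8 libraries, 1 panel a gene with its own axis, points by group with a line at the group mean. Bmpr1b, Cyp19a1 and Serpine2 were higher at MII than at GV in control libraries, Nr5a2 was lowest in control MII, and Inha was lowest in knockout MII.

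Of the genes of exchange between oocyte and somatic cells, Gja1 had the MII call that held under most alternatives. It encodes connexin 43, and lies in mm10 on chromosome 10 from 56377330 to 56402513, plus strand. Its level was 2.97 and 2.93 CPM at GV and 3.46 and 3.07 at MII in control oocytes, and 1.47 and 0.661 at GV and 0.0298 and 0 at MII in knockout oocytes. The knockout libraries lay below the control libraries at both stages, and knockout MII was lowest. Gja1 fell at MII in the knockout, from 183 reads to 1, a ratio of 195 (interval 34.6 to 7757; -7.27 ± 1.29, adjusted p = 0.0130). The call held whichever library was left out and under 12 of 13 alternatives (adjusted p from 0.000114 to 0.0534), and was lost with only the 4 MII libraries. Over maturation Gja1 fell in knockout oocytes (42 reads to 1, ratio 60.3, interval 10.2 to 2436, adjusted p = 0.00406, kept under all 14 alternatives) and gave 0.15 ± 0.89 in control oocytes (adjusted p = 0.907). At GV the knockout difference was -1.47 ± 0.92 (adjusted p = 0.672), and the difference between the stages did not pass (-5.80 ± 1.53, adjusted p = 0.203).

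Ihh, for the ligand Indian hedgehog that granulosa cells send to theca cells, had 4.27 and 1.97 CPM at GV and 0.0385 and 0.132 at MII in control oocytes, and 0.227 and 0.207 at GV and 0 and 0 at MII in knockout oocytes. Control GV lay above all other libraries. Ihh fell over maturation in control oocytes, from 139 to 5 reads (ratio 34.5, interval 14.4 to 108, adjusted p = 0.0143), a call lost without control MII library a or either control GV library. It fell in knockout oocytes, at least 2.14-fold (adjusted p = 0.0295), a call lost when any library but the 2 of control MII was left out. The knockout difference was -3.82 ± 1.31 at GV (adjusted p = 0.290).

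Kitl, the ligand of the oocyte receptor KIT, was the only low gene above its control level in both knockout MII libraries beside Has2. At MII it had 0.462 and 1.75 CPM in control and 7.54 and 2.91 in knockout oocytes (2.23 ± 1.00, adjusted p = 0.224), and 0.371 to 1.07 CPM at GV. Over maturation in knockout oocytes Kitl gave 2.43 ± 1.02 (adjusted p = 0.0695). That change was called higher with DESeq2 and with only the 4 libraries compared. It was not called with DESeq2 size factors, with library totals or with no filter on low counts. Slc38a3, an amino acid transporter of cumulus cells, had 0 reads in all 4 MII libraries, and at GV 9 and 0 in the control libraries and 1 and 22 in the knockout libraries.

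As CPM per kilobase of exon, the readily detected genes ranked in control GV as Inha (29.8 ± 25.0, SD, n = 2), Bmpr1b (16.4 ± 0.0418), Serpine2 (16.3 ± 3.35), Nr5a2 (7.44 ± 0.0893) and Cyp19a1 (5.66 ± 1.17). The spread of Inha covered all 4 others, so its place in this order is not resolved, and Bmpr1b and Serpine2 did not differ beyond their spread. In control MII the order was Serpine2 (39.6 ± 5.19), Bmpr1b (39.2 ± 1.82), Cyp19a1 (17.8 ± 2.19), Inha (10.8 ± 7.17) and Nr5a2 (4.47 ± 1.13). Serpine2 and Bmpr1b again lay within their spread, as did Inha with both Cyp19a1 and Nr5a2.

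Markers of other cells moved with the groups in part. The 6 defining granulosa markers outside the readily detected class (Foxl2, Fshr, Amhr2, Amh, Nr5a1 and Inhba) summed to 12.7 and 11.6 unscaled CPM at GV and 7.23 and 4.03 at MII in control oocytes, and 3.26 and 1.43 at GV and 0.0300 and 0 at MII in knockout oocytes. In knockout MII library 1 that was 1 read of Amh, and library 2 had 0 reads of all 6. Knockout MII, where the 2 called genes fell, thus had the fewest reads of these 6. This did not hold with Inha and Cyp19a1 added. In knockout MII, Cyp19a1 held 2112 of the 2205 reads of all 8 in library 1 and all 1643 in library 2. Inha was itself lowest in knockout MII, at 2.74 and 0 CPM after TMM scaling. All 8 markers summed to 107 and 69.1 CPM at GV and 118 and 87.4 at MII in control oocytes. In knockout oocytes they summed to 27.1 and 32.8 CPM at GV and 66.2 and 57.0 at MII. The part of these markers in the falls of Gja1 and Hsd17b1 was not tested. The 19 blood and immune markers summed to 79.4 and 72.0 CPM at GV and 17.2 and 65.6 at MII in control oocytes, and 43.1 and 58.9 at GV and 7.30 and 8.84 at MII in knockout oocytes. Of these, 9 were tested and 2 fell at MII in the knockout, where 3.44% of all genes did, Cd52 (at least 70.1-fold lower) and Ccl3 (at least 65.2-fold lower). In GV oocytes most of the sum was C1qb, at 46.3 to 69.3 CPM after TMM scaling, and without it the other 18 summed to 7.10 to 10.2 CPM. In control MII library b the sum was led by Cd74, at 36.2 CPM after TMM scaling, the same library that held nearly all reads of Tnfaip6 and Ptgs2. Ptprc and Lyz2, which define leukocytes and macrophages, were at 0 in all 8 libraries. Whether these markers bear on Tnfaip6, Ptgs2 or Star was not tested.

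The other lists were lower or flatter. The 8 endothelial markers summed to 13.0 to 22.5 CPM at GV and at MII to 46.4 and 35.3 in control and 24.8 and 28.6 in knockout libraries. The 10 stroma and theca markers summed to 0.471 to 3.35 CPM and the 6 surface epithelium markers to 4.28 to 13.9 CPM over the 8 libraries. Of these 3 lists 5, 2 and 1 genes were tested, and 0 were called at either stage. Low genes had 0 reads more often at MII. Of 5029 genes with a mean of 0.5 to 5 CPM, 2.96% to 4.41% had 0 reads in a GV library, and at MII 17.8% and 14.3% in control and 18.1% and 23.9% in knockout libraries. Of 14 genes of the set in that range, 2 or 3 had 0 reads in a GV library, and at MII 2 and 1 in the control libraries and 7 and 10 in the knockout libraries (50% and 71.4%). The share of all low genes at 0 was thus higher at MII than at GV in both genotypes. At 18.1%, knockout MII library 1 lay near control MII library a (17.8%). The part of this share in the falls at MII was not tested.

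**Figure D5:**
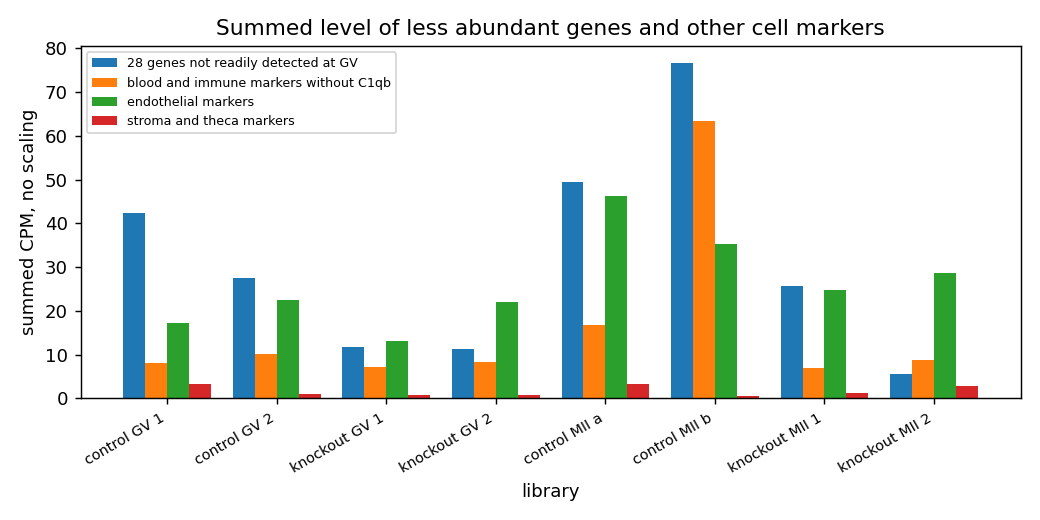
Summed unscaled CPM in each of the 8 libraries for the 28 genes outside the readily detected class, the blood and immune markers without C1qb, the endothelial markers and the stroma and theca markers, as bars from 0. The 28 genes summed to 42.3 and 27.5 CPM at GV and 49.4 and 76.7 at MII in control oocytes, and 11.8 and 11.2 at GV and 25.6 and 5.58 at MII in knockout oocytes.

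Further genes of the same pathways were read from wider lists, of which none had a member called at GV and none a member that rose at MII. Of 30 other granulosa genes, 21 were tested and 2 fell at MII in the knockout. Runx1, a transcription factor of granulosa cells, had 0.186 and 0.210 CPM at GV and 3.46 and 4.33 at MII in control oocytes, and 0.0566 and 0.0413 at GV and 0.0298 and 0 at MII in knockout oocytes (-7.53 ± 1.45, adjusted p = 0.0182). Wnt4, a ligand of ovarian development, had 3.19 and 9.25 CPM at MII in control oocytes and 0 in both knockout libraries, at least 61.4-fold lower (adjusted p = 0.00895). Of 22 genes of the EGF receptor pathway and matrix, 15 were tested and 2 fell, Ptges, a prostaglandin E synthase (-5.76 ± 1.40, adjusted p = 0.0426), and Timp1, an inhibitor of metalloproteinases (at least 160-fold lower, adjusted p = 0.0260). Of 18 genes of steroid and lipid supply, 12 were tested and 1 fell, Fdxr, the reductase that feeds electrons to mitochondrial steroid enzymes (-6.29 ± 1.15, adjusted p = 0.0144). Of 24 genes of TGF-beta signalling 16 were tested, and of 20 genes of the dialogue with the oocyte 19, with 0 called at either stage. Of 9 oocyte markers, all tested, 1 fell at MII, Figla, a transcription factor of the zona genes (-3.15 ± 0.79, adjusted p = 0.0482). Counts in these lists stood beside 3.44% of all genes lower at MII.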

How the data were processed

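RNA was sequenced from 8 oocyte libraries, 2 in each of 4 groups. The authors deposited whole-number read counts per Ensembl gene in 1 table of 54838 genes and 5 summary entries. Those entries held 22.0% to 35.1% of a library's reads and stayed out of library sizes. The submitters' processing notes name mm10, Bowtie2 for alignment, HTSeq for counting and edgeR. The strand setting was not given in the sources used here, nor were versions and annotation, so reads of antisense or overlapping genes and near-identical copies cannot be told apart. The second control MII library's name heads 2 columns, per the file headers. They served as control MII libraries a and b, a choice of letters without meaning, and 0 value columns were left unused. Symbols came from GENCODE M21, which names 54723 of the identifiers, and promoter windows from RefSeq.

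In R 4.3.3, edgeR 4.0.16 fitted 1 term per group over all 8 libraries, after filterByExpr (15572 genes) and TMM scaling, with 4 residual and 6.30 prior degrees of freedom. The two-sided quasi-likelihood F-test was run for 5 contrasts, with Benjamini-Hochberg adjustment over all genes tested in each and a threshold of 0.05. SE values were derived from each fold change and its F statistic. Where both libraries of a group had 0 reads, the fold is a lower bound that sets the other group's mean against 3 counts per library. The spread within the other group is not covered, so a single library can give a smaller fold. With 1 to 5 reads in the lower group, the ratio of counts is given with its interval. Classes at GV and summed levels used CPM of all gene reads without scaling, and since the classes were set on GV values, they support no GV comparison. Replicate libraries differed by more than sampling noise, with a chi-square per degree of freedom of 48.5 to 106. In simulated counts, where changed genes had a mean of at least 5 CPM, genes changed by log2 1, 2 and 4 were recovered at 10.4%, 77.6% and 98.5% for the GV contrast (14867 genes) and 8.96%, 65.7% and 100% for the MII contrast (14824 genes). Recovery of lower genes, which most of the set are, is not covered.

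The genes, lists and tests were chosen with earlier results of these data known. Values in every library are given for genes called in a contrast, genes readily detected at GV and defining granulosa markers. Genes called at GV or MII are named from each wider list. Alternatives were DESeq2 1.42.0 (size factors, or its own test), library totals, no filter or a mean of at least 5 CPM, only the 4 libraries compared, leaving out each library and the replicate number as a block. Age, exon and dissection effects were not analysed here.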

Additional observations from a re-analysis of the deposited data

How the results depend on the processing

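Among the 28 genes outside the readily detected class, some zeros stood beside single reads, as for Gja1 in knockout MII (1 and 0). Other zeros stood beside many reads, as for Tnfaip6 in control MII (0 and 154). The part of depth in these zeros was not tested. Against 0 of the 24 called at GV, 1 (Inha) passed with no filter and 4 (Amhr2, Amh, Inha and Ihh) with only the 4 GV libraries, and 0 whichever library was left out. Against 2 of 24 at MII, 10 of 30 passed with no filter, 7 of 24 with DESeq2 and 1 of 17 (Inhba) with only the 4 MII libraries. Under a 5 CPM mean 7 were tested and 0 passed, but Gja1 and Hsd17b1 were too low to be among those 7. Genes added both with no filter and with DESeq2 were Vcan, Inhba, Fst, Foxl2 and Nr5a1. Leaving out a library gave 1 to 4. Against 9 over maturation in control oocytes, 13 passed with no filter (8 higher and 5 lower), 10 with DESeq2, 5 under a mean of at least 5 CPM and 4 to 9 with a library left out (4 without either control GV library). Against 7 in knockout oocytes, 12 passed with no filter, 2 with a mean of at least 5 CPM and 5 to 10 with a library left out (5 without either control GV library or knockout GV library 1). For the difference between stages, against 0, 2 (Vcan and Inhba) passed with no filter, 1 (Inhba) with DESeq2 and 0 with a library left out. TMM scaling moved the summed level of the readily detected genes from 389 to 346 CPM in control GV and from 367 to 406 CPM in knockout GV. It moved the 15 genes between from 10.3 to 11.5 CPM in knockout GV and the 13 near 0 from 2.10 to 1.87 CPM in control GV. Signs turned for Bmpr1b (-0.0216) and Nr5a2 (-0.23) at GV with library totals, for Nr5a2 at GV with a mean of at least 5 CPM (-0.00832) and for Serpine2 at MII without knockout MII library 1 (-0.0137, and up to 0.316 with other libraries left out), none of them called. The readily detected class was 6 genes at 1 CPM, 4 at 10 CPM and 5 with any GV library left out. Over all genes, 93 higher and 61 lower at GV became 304 and 222 with DESeq2, and 265 and 535 at MII became 643 and 1108. With no filter, 25203 genes were tested, 30 of them in the set. Of all these, 336 were higher and 191 lower at GV, and 599 and 1230 at MII. Over maturation they were 3225 and 4436 in control and 2988 and 4696 in knockout oocytes. With only the 4 libraries compared, 345 and 357 of 13992 passed at GV (20 of the set tested). At MII, 166 and 226 of 12948 did. The cause of these shifts was not tested. With the replicate number as a block, over the 6 numbered libraries, 0 of these genes passed at GV and 9 (2 higher and 7 lower) over maturation in knockout oocytes, where the same libraries without the block, an alternative added after seeing the data, gave 3 higher and 6 lower, with Kitl called and Inha not. Deviations of same-numbered libraries correlated at 0.119, 0.0127 and -0.0200, so the numbers are not shown to pair the libraries.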
